A study of Mus musculus with 16 samples.

Results

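Expression of 10 genes for cardiac transcription factors was followed in cultured mouse heart slices: *Nkx2-5*, *Gata4*, *Gata6*, *Hand2*, *Tbx20*, *Tbx5*, *Mef2a*, *Mef2c*, *Srf* and *Tbx2*. They were taken by name, without use of their values, though earlier results of these data were known. They are 10 of the 55487 genes in the raw count data. The slices came from male mice aged 8 weeks, and apex and base of the heart had been cut away. The 16 RNA-seq libraries fall into 4 groups of 4. Swhtr null treated and WT treated slices spent 7 days at 3% oxygen and then 7 days at 21% oxygen. Swhtr null untreated and WT untreated slices stayed at 21% oxygen for 14 days. Swhtr null mice carry a transcriptional stop signal on both alleles of *Swhtr*, a long noncoding RNA transcribed divergently from *Nkx2-5*. Their strain was made in hybrid C57Bl6/129S6 embryonic stem cells, backcrossed 6 times to C57BL6J and kept by breeding homozygotes with each other. A value for *Swhtr* itself was not analysed here, and the genotype labels were taken as given.

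These factors act as a network. In the embryo NKX2-5, GATA4, TBX5, HAND2 and TBX20 bind together at regulatory regions of heart muscle genes, and several of them are required for a heart tube to form or to loop. In the adult heart NKX2-5 and TBX5 are mainly factors of cardiomyocytes and the conduction system, whereas GATA4, GATA6, HAND2 and TBX20 are also made by cardiac fibroblasts. MEF2 proteins and SRF are broadly expressed. SRF binds the CArG box and works either with MRTF or myocardin at muscle and cytoskeletal genes or with ternary complex factors at immediate early genes.

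Promoter sequence was at hand for 6 of the 10 genes (RefSeq, GRCm38.p6, 250 bases before to 50 after a start site): *Nkx2-5*, *Hand2*, *Tbx20*, *Mef2a*, *Mef2c* and *Srf*. Motifs were searched on both strands. Of the 32851 windows of this length 1.63% held a CArG box, and among the 6 genes *Srf* was the single one, with boxes starting 82 and 62 bases before its start site. A MEF2 element occurred in 3.19% of all windows and, among the 6 genes, in that of *Mef2a*, 2 bases before the start site. The GATA core (GATAA) occurred in 25.4% of all windows, in *Hand2* at 214 and 172 bases before the start site and also in *Mef2c*. *Srf*, *Mef2a* and *Hand2* are printed because the first is a known target of its own product, the second carries the element of its own family, and the third varied together with the *Gata* genes across libraries. Capitals mark the CArG boxes in *Srf* (chr17:46556113-46556412, minus strand), the MEF2 element in *Mef2a* (chr7:67372809-67373108, minus strand) and the GATA cores in *Hand2* (chr8:57320733-57321032, plus strand).
Srf: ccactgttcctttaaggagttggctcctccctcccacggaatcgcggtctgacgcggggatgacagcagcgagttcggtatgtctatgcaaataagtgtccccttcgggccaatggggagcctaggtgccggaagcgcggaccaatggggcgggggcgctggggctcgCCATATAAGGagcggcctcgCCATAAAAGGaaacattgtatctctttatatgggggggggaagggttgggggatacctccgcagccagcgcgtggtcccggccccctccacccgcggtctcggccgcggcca
Mef2a: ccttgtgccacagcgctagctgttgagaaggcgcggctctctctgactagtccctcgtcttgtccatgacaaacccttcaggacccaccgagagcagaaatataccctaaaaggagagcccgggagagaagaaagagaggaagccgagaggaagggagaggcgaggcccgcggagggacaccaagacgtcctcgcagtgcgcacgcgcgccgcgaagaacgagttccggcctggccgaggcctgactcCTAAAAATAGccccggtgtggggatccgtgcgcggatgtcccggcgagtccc
Hand2: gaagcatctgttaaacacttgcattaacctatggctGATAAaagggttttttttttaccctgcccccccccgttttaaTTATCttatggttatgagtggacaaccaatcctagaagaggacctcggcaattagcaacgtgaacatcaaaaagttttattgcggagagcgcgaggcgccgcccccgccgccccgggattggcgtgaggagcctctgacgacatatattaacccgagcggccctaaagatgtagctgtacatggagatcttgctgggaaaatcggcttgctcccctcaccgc
The remaining motifs were common in all windows: the NKX2-5 core (AAGTG) in 46.4%, the E-box (CANNTG) in 72.3% and the T-box core (GGTGTG) in 19.0%. A core of NKX2-5 in *Hand2*, 235 bases before the start site, overlapped an E-box there. A match gives only the presence of letters in the window, not binding.

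Libraries held 17830351 to 29941903 counts. The tissue label was checked against cell type markers, and transcripts of cardiomyocytes were nearly missing. The 14 cardiomyocyte markers summed to 11.5–109 CPM (counts scaled to library size after TMM normalization) in Swhtr null treated, 7.39–13.3 CPM in Swhtr null untreated, 9.31–59.2 CPM in WT treated and 7.92–23.2 CPM in WT untreated slices, and *Myh7* and *Ckm* were at 0 in all WT untreated libraries. The 10 fibroblast markers summed to 23684–33792 CPM over all libraries and the 10 macrophage markers to 4005–12490 CPM. The values below thus describe slices whose RNA carried many fibroblast and macrophage transcripts and few of cardiomyocytes. In bulk tissue fewer cells of a type and less RNA per cell cannot be told apart. Swhtr null treated library 2 stood apart, with the highest cardiomyocyte sum (109 CPM) and the lowest macrophage sum (4005 CPM). It was also the library with most *Nppa* (3.88 CPM), *Nppb* (1.45 CPM) and *Myl7* (14.8 CPM). *Nppa* and *Myl7* are high in atrial muscle, but whether this library held atrial tissue was not tested.

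The 10 genes spanned 2 orders of magnitude in level. Expressed per kb of exonic length, mean CPM over the 16 libraries was 17.5 for *Tbx20*, 14.3 for *Srf*, 12.1 for *Gata4* and 9.96 for *Mef2a*. Their neighbours in this order overlapped in range. A clear step followed, with every library higher for *Mef2a* than for *Mef2c*. *Mef2c* (3.55), *Hand2* (3.23), *Gata6* (3.19) and *Tbx2* (2.91 CPM per kb) formed an overlapping middle group. *Tbx5* (0.152) and *Nkx2-5* (0.0736 CPM per kb) lay below every value of the other 8 genes. The genes also differed in spread. *Mef2a* ranged 1.21-fold between its lowest and highest library and *Srf* 1.42-fold, against 2.31-fold for *Tbx20*, 2.56-fold for *Gata4* and 3.27-fold for *Hand2*.

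**Figure D1:**
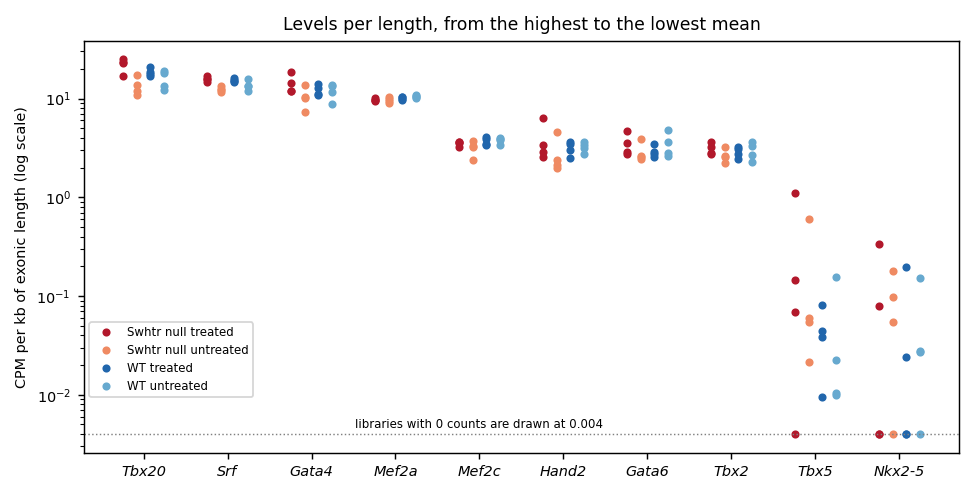
CPM per kb of exonic length (vertical log axis) of the 10 genes in the 16 libraries, ordered by the mean. Each point is 1 library, colours give the 4 groups, and libraries with 0 counts are drawn at 0.004. *Tbx5* and *Nkx2-5* lie below the other 8 genes, whose means run between 2.91 and 17.5.

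*Nkx2-5*, which encodes the homeodomain factor of the cardiac core network and lies next to *Swhtr* (chromosome 17, 26838664–26845009, minus strand, GRCm38), was close to undetected. Its raw counts were 0, 16, 4 and 0 in Swhtr null treated, 2, 3, 0 and 6 in Swhtr null untreated, 0, 0, 1 and 8 in WT treated and 0, 5, 1 and 1 in WT untreated libraries. All groups overlapped, and each had at least 1 library at 0. A count of 0 still allows a level of up to 0.168 CPM in the shallowest library (3 counts). With counts and library totals pooled per group, the level was 0.194 CPM in Swhtr null treated (95% exact Poisson interval 0.119–0.300), 0.138 in Swhtr null untreated (0.0691–0.248), 0.0971 in WT treated (0.0444–0.184) and 0.0872 in WT untreated slices (0.0350–0.180), where the intervals cover counting error only. A genotype or treatment difference was not detectable at this depth: the 95% interval of the log2 fold change ran between -1.87 and 3.66 for Swhtr null treated against WT treated, and between -2.33 and 3.62 for Swhtr null untreated against WT untreated slices.

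*Tbx5*, a T-box factor of the atria, the left ventricle and the conduction system in the embryo, followed single libraries rather than groups. It had 7, 143, 20 and 0 counts in Swhtr null treated, 6, 50, 2 and 5 in Swhtr null untreated, 4, 1, 5 and 9 in WT treated and 2, 14, 1 and 1 in WT untreated libraries. Library 2 was the highest in 3 of the 4 groups, and the 2 largest counts both belong to Swhtr null libraries numbered 2. The groups overlapped. The log2 fold change of Swhtr null treated over WT treated slices was 2.90 (SE 1.41, adjusted p = 0.77, edgeR quasi-likelihood test) and that of Swhtr null untreated over WT untreated slices 1.86 (SE 1.48, adjusted p = 0.94). The cardiomyocyte sum of 109 CPM in Swhtr null treated library 2 moved with *Tbx5*, but that of Swhtr null untreated library 2 was only 13.3 CPM, and over all 16 libraries the relation of *Tbx5* to the cardiomyocyte marker level did not pass (r = 0.55, permutation adjusted p = 0.12).

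The main question of the design was whether slices respond to hypoxia and return to normoxia, and whether loss of *Swhtr* alters this response. Calls required an adjusted p under 0.05 (edgeR, Benjamini-Hochberg over 24971 genes) together with a log2 fold change beyond 0.58. All 10 genes passed the minimum of 10 counts in total. None was called in any comparison. Among all genes tested the called share was 0.621% in Swhtr null treated against Swhtr null untreated slices, 0.0% in WT treated against WT untreated, 0.0921% in Swhtr null treated against WT treated, 0.1% in Swhtr null untreated against WT untreated, and 0.0% for the difference of the 2 responses. At such shares, 0 calls among 10 genes do not depart from the background. With the replicate number as a block 0.208% of all genes were called for the difference of the responses, and none of the 10 was among them (lowest adjusted p 0.075 for *Gata4*, edgeR). At an unadjusted p under 0.05, which 16.5% of all genes reached in the Swhtr null response, 3 genes were higher in Swhtr null treated slices (*Gata4*, *Tbx20*, *Srf*). In WT slices 1 was higher after treatment (*Srf*), against 4.81% of all genes. None of the 10 passed it between treated slices of the 2 genotypes (6.25% of all genes) or for the difference of the responses (6.89%), and 1 was lower in untreated Swhtr null than in untreated WT slices (*Mef2c*), against 5.36% of all genes.

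**Figure D2:**
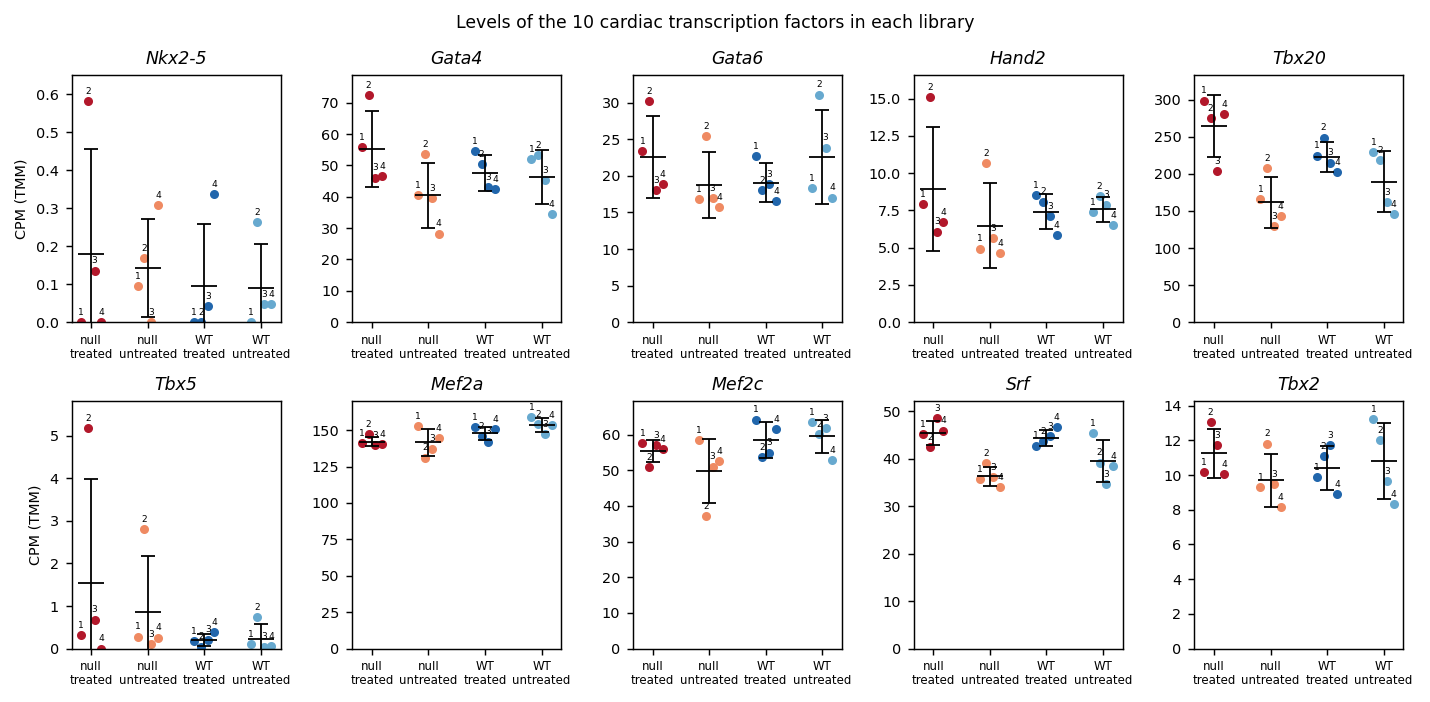
CPM (vertical axis from 0) of the 10 genes in each library. Points are libraries with their number, horizontal marks are group means and bars are SD (n = 4), cut at 0 where they would pass below it; *Srf* is the gene whose Swhtr null treated libraries (42.3–48.5) all lie above the Swhtr null untreated ones (34.1–39.0).

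*Srf* (chromosome 17, 46548329–46556175, minus strand), encoding serum response factor, was higher in treated than in untreated Swhtr null slices at the adjusted p, but below the fold threshold. Its level was 45.2, 42.3, 48.5 and 45.9 CPM in Swhtr null treated, against 35.7, 39.0, 36.2 and 34.1 CPM in Swhtr null untreated slices. These groups did not overlap, as in 7.32% of all genes tested. The log2 fold change was 0.33 (SE 0.08, adjusted p = 0.022), a threshold on p alone that 2.18% of all genes passed. With the replicate number as a block adjusted p was 0.0042, in a fit where 9.4% of all genes were under 0.05. Adjusted p ranged between 0.0030 and 0.11 over the alternatives and was above 0.05 with the libraries compared only (0.085) and when Swhtr null treated library 1 (0.055) or 3 (0.051) or Swhtr null untreated library 1 (0.055), 3 (0.073) or 4 (0.11) was left out. WT treated slices had 42.7, 43.7, 44.8 and 46.6 CPM and WT untreated slices 45.4, 39.1, 34.7 and 38.4 CPM. WT untreated library 1 was as high as the treated libraries, and the groups overlapped (log2 fold change 0.17, SE 0.08, adjusted p = 0.999). The responses of the 2 genotypes were not shown to differ (difference 0.16, SE 0.11, adjusted p = 0.75, 95% interval -0.08 to 0.39).

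*Tbx20* (chromosome 9, 24718138–24774303, minus strand), a T-box factor needed for chamber growth and for upkeep of the adult heart, had the largest fold change among the 8 genes with ample counts. Swhtr null treated slices had 299, 275, 204 and 280 CPM and Swhtr null untreated slices 166, 208, 129 and 144 CPM. Treated library 3 fell just under untreated library 2, so that the groups overlapped. The log2 fold change was 0.71 (SE 0.17, edgeR adjusted p = 0.053). Pairing of same-numbered Swhtr null libraries was not established. With the replicate number as a block *Tbx20* was called (0.72, SE 0.10, edgeR adjusted p = 0.00064), as were 2.47% of all genes. DESeq2 called it as well (0.70, adjusted p = 0.0013), as it did 1.86% of all genes. Without Swhtr null treated library 3 it was called by edgeR (0.82, adjusted p = 0.023), and likewise without Swhtr null untreated library 2 (0.85, adjusted p = 0.013), WT untreated library 1 (adjusted p = 0.044) or WT untreated library 4 (adjusted p = 0.035). It was not called with any of the other 12 libraries left out, nor with the libraries compared only (adjusted p = 0.099), with size factors (0.056) or without the filter on low counts (0.086). Over all alternatives adjusted p ran between 0.00064 and 0.20, the highest without Swhtr null untreated library 4. WT treated slices had 225, 249, 215 and 202 CPM, against 230, 219, 162 and 146 CPM in WT untreated slices, where libraries 1 and 2 were as high as treated ones (0.24, SE 0.17, adjusted p = 0.999). The difference of the responses was 0.47 (SE 0.25, adjusted p = 0.71, 95% interval -0.06 to 1.01).

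*Gata4* and *Gata6* encode zinc finger factors with shared roles in heart development, and *Hand2* a basic helix-loop-helix factor of the right ventricle and the epicardium. *Gata4* had 55.9, 72.3, 46.1 and 46.6 CPM in Swhtr null treated and 40.4, 53.7, 39.6 and 28.3 CPM in Swhtr null untreated slices (log2 fold change 0.45, SE 0.20, adjusted p = 0.28). *Hand2* had 7.92, 15.1, 6.07 and 6.72 CPM in Swhtr null treated and 4.94, 10.7, 5.64 and 4.62 CPM in Swhtr null untreated slices (0.48, SE 0.29, adjusted p = 0.45). *Gata6* had 23.4, 30.2, 18.02 and 18.9 CPM against 16.8, 25.4, 17.0 and 15.7 CPM (0.27, SE 0.22, adjusted p = 0.58). For all 3 genes library 2 was the highest of both Swhtr null groups. With the replicate block *Gata4* (adjusted p = 0.00021) and *Hand2* (adjusted p = 0.031) passed on p but not on fold, as 9.4% of all genes passed on p in that fit. WT treated and WT untreated slices overlapped for each, at 42.5–54.5 and 34.5–53.2 CPM for *Gata4*, 16.5–22.8 and 17.0–31.1 CPM for *Gata6*, and 5.86–8.53 and 6.502–8.46 CPM for *Hand2*. In WT slices the log2 fold changes were 0.04 (*Gata4*), -0.25 (*Gata6*) and -0.03 (*Hand2*), each with adjusted p = 0.999. *Hand2* overlaps *Hand2os1* on the opposite strand, which itself reached 27.0 CPM in Swhtr null treated library 2. The strand setting of the counting was not stated, so that the reads of both genes could not be told apart with certainty. The same holds for *Gata6* and 1010001N08Rik (0.525–2.65 CPM) and for *Mef2a* and *Lysmd4* (10.6–13.6 CPM).

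*Mef2a* and *Mef2c*, which encode MADS-box factors of muscle genes, and *Tbx2*, which encodes a T-box repressor of the atrioventricular canal, differed little between groups. *Mef2a* had 140–147 CPM in Swhtr null treated, 131–153 CPM in Swhtr null untreated, 142–152 CPM in WT treated and 147–159 CPM in WT untreated slices. Its response was bounded closely, with a log2 fold change of 0.01 in Swhtr null slices (95% interval -0.12 to 0.13) and -0.05 in WT slices (-0.18 to 0.07). *Mef2c* had 58.5, 37.1, 51.0 and 52.6 CPM in Swhtr null untreated slices, against 63.4, 60.0, 61.8 and 52.9 CPM in WT untreated slices. Swhtr null library 2 was lowest there, and the groups overlapped (log2 fold change -0.26, SE 0.10, adjusted p = 0.90). In treated slices *Mef2c* had 50.8–57.6 CPM in Swhtr null and 53.6–64.2 CPM in WT. *Tbx2* had 10.2, 13.1, 11.7 and 10.1 CPM in Swhtr null treated and 9.32, 11.8, 9.48 and 8.15 CPM in Swhtr null untreated slices (0.22, SE 0.15, adjusted p = 0.49). WT treated slices had 8.89–11.7 CPM and WT untreated slices 8.33–13.2 CPM of *Tbx2*.

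**Figure D3:**
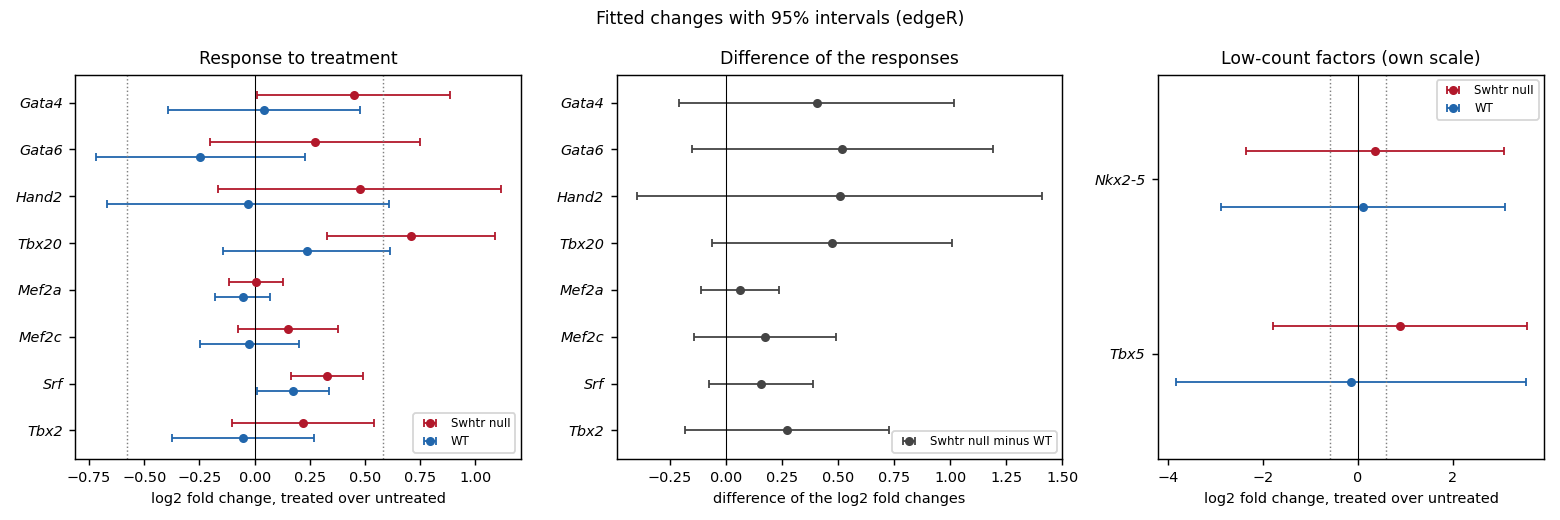
Fitted log2 fold changes of treated over untreated slices in Swhtr null and WT (left; *Nkx2-5* and *Tbx5* on their own scale at right) and the difference of the 2 responses (middle). Points are edgeR estimates, bars are 95% intervals and dotted lines mark ±0.58; the intervals of *Srf*, *Tbx20* and *Gata4* in Swhtr null slices and of *Srf* in WT slices lie above 0, and every interval of the difference includes 0.

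As a group, all 10 fitted changes were above 0 in Swhtr null slices (median 0.34, against 0.01 over all genes, of which 51.6% were above 0). In WT slices 4 were above and 6 below 0 (median -0.03). The count of 10 depended on single libraries: it was 7 without Swhtr null treated library 2, 8 without Swhtr null untreated library 3, 8 without both Swhtr null libraries numbered 2, and 7 with limma. The median without Swhtr null treated library 2 was 0.12. Comparisons that share a group of libraries are not independent of each other. Between genotypes, 8 of 10 were above 0 in treated slices (median 0.23) and 2 of 10 in untreated slices (median -0.17). The count in treated slices was 6 (median 0.04) without Swhtr null treated library 2 and 5 (median 0.01) with limma. In treated slices the difference was 0.25 for *Tbx20* (95% interval -0.13 to 0.62), 0.21 for *Gata4* (-0.22 to 0.64) and 0.03 for *Srf* (-0.13 to 0.20).

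Cell type markers were followed in treated against untreated Swhtr null slices as well. In the same comparison, 9 of 10 fibroblast markers were higher in Swhtr null treated slices (median log2 fold change 0.27), 9 of 9 smooth muscle and pericyte markers were higher (0.45), all 14 cardiomyocyte markers were higher (2.73) and all 10 macrophage markers were lower (-0.51). Higher were also 7 of 8 endothelial markers (0.32), 5 of 6 Schwann cell markers (0.63) and 4 of 7 epicardial and mesothelial markers (0.12). Called among the markers of all 7 lists were the fibroblast gene *Dpt* (0.97) and the Schwann cell gene *S100b* (1.62), both higher, and the mesothelial keratin gene *Krt19* (-2.25), which was lower. In WT slices all 14 cardiomyocyte markers were higher too (median 1.34), and none was called. There 5 of 10 fibroblast, 6 of 9 smooth muscle and pericyte and 2 of 10 macrophage markers were higher (medians 0.03, 0.01 and -0.07). The cardiomyocyte sums of Swhtr null treated libraries 1 and 4 were 15.2 and 11.5 CPM, against 109 and 82.8 CPM in libraries 2 and 3. The fibroblast sum was 25840–33792 CPM in Swhtr null treated and 23684–28263 CPM in Swhtr null untreated slices, and the smooth muscle and pericyte sum was 1009–1243 CPM in Swhtr null treated and 648–849 CPM in Swhtr null untreated slices. Their part in the changes of *Tbx20*, *Srf*, *Gata4* and *Hand2* was not tested.

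Across the 16 libraries the 10 genes were related to the mean log2 level of the cardiomyocyte markers, and none passed the adjustment over the 10 relations (permutation test with 100000 resamples). The highest r were those of *Tbx5* (r = 0.55, rho = 0.44, p = 0.026, adjusted p = 0.12), *Srf* (r = 0.52, rho = 0.53, p = 0.035, adjusted p = 0.12) and *Nkx2-5* (r = 0.52, rho = 0.14, p = 0.037, adjusted p = 0.12). Without Swhtr null treated libraries 2 and 3, which lie farthest from the median, r was 0.17 for *Tbx5*, 0.48 for *Srf* and 0.27 for *Nkx2-5*. *Gata4* had the highest rho (r = 0.49, rho = 0.61, permutation p for rho 0.015, adjusted p = 0.15). The same relation to all 7 marker lists, added after the values were seen, gave 70 relations. *Gata4* followed the fibroblast level most closely (r = 0.91, rho = 0.94, permutation p = 1e-05, the smallest that 100000 resamples can give, adjusted p = 0.00035), with r = 0.92 without the 2 farthest libraries (Swhtr null treated 2 and untreated 3) and 0.89 with group means removed. *Hand2* also followed it (r = 0.87, rho = 0.87, permutation p = 3e-05, adjusted p = 0.00052), with r = 0.79 without those libraries and 0.91 with group means removed. *Tbx20* was closest to the smooth muscle and pericyte level (r = 0.87, rho = 0.86, permutation p = 1e-05, adjusted p = 0.00035), with r = 0.83 without the 2 farthest libraries (Swhtr null untreated 4 and WT untreated 4) and 0.75 with group means removed, and had r = 0.84 with the fibroblast level (adjusted p = 0.00052). *Srf* followed the smooth muscle and pericyte level (r = 0.79, rho = 0.75, permutation p = 0.00041, adjusted p = 0.0040), with r = 0.72 without the 2 farthest libraries and 0.61 with group means removed. *Gata6* followed the fibroblast level (r = 0.76) and the epicardial and mesothelial level (r = 0.73), each with r = 0.88 with group means removed. Without the 2 farthest libraries of each list, r was 0.67 for fibroblasts and 0.62 for epicardial and mesothelial cells. *Tbx2* also followed the fibroblast level (r = 0.70, permutation adjusted p = 0.015), with r = 0.65 without the 2 farthest libraries. *Gata4* had r = 0.72 with the smooth muscle and pericyte level (permutation adjusted p = 0.0094), and 0.49 without the 2 farthest libraries. With the Schwann cell level r was 0.65 for *Gata6*, 0.62 for *Hand2* and 0.59 for *Gata4* (permutation adjusted p = 0.029, 0.036 and 0.0495). *Tbx5* with fibroblasts and *Tbx2* with smooth muscle cells and pericytes each had r = 0.61 (permutation adjusted p = 0.048). Without the 2 farthest libraries these were 0.35 and 0.38. Relations to the macrophage level were inverse. *Hand2* had r = -0.85 (rho = -0.69, permutation p = 0.00011, adjusted p = 0.0015), which was -0.59 without the 2 farthest libraries (Swhtr null treated 2 and untreated 2) and -0.92 with group means removed. *Gata4* had r = -0.79 (rho = -0.79, permutation p = 0.00027, adjusted p = 0.00315), and -0.76 without those libraries. *Tbx20* had r = -0.63 (adjusted p = 0.017) and -0.90 without them, *Gata6* -0.66 (adjusted p = 0.025) and -0.42, and *Tbx2* -0.59 (adjusted p = 0.031) and -0.48. The relation of *Tbx5* to the macrophage level (r = -0.70, adjusted p = 0.029) rested on those 2 libraries, since r was 0.04 without them. The libraries of a genotype come from 4 mice, so these p-values take as independent what may not be.

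**Figure D4:**
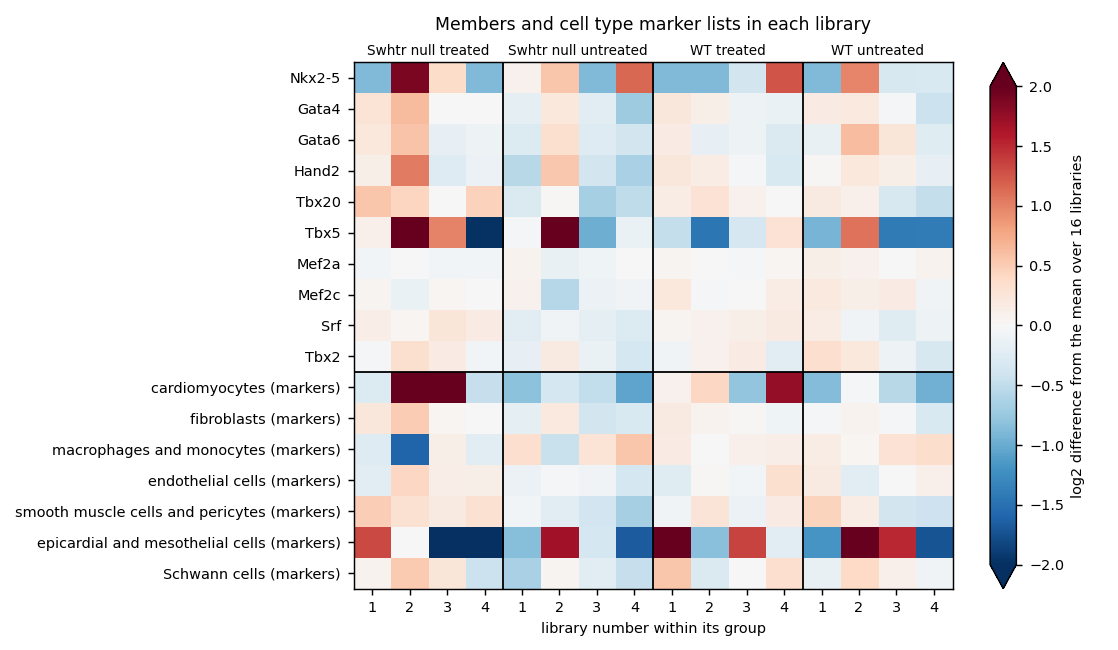
Difference of each gene (log2 of CPM + 0.1) and of each marker list (mean log2 CPM) from its mean over the 16 libraries, in columns by group and library number; red is higher, blue is lower, and colours stop at 2 log2 units. Swhtr null treated library 2 is red for *Tbx5*, *Hand2* and the cardiomyocyte markers and blue for macrophage markers, and the *Mef2a* row is nearly blank.

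Some of the 10 genes varied together over the 16 libraries, which is given as a description, since libraries share mice and treatment. *Gata4*, *Gata6* and *Hand2* had pairwise r of log2 CPM between 0.77 and 0.87, and *Gata4* with *Tbx20* 0.78. *Mef2a* and *Mef2c* had r = 0.73, and *Nkx2-5* and *Tbx5* r = 0.75 at their low counts. *Tbx20* and *Srf* had r = 0.74, which was 0.34 after group means were removed. Outside these genes, among 12721 protein-coding genes with a mean of at least 1 CPM, those most like *Gata4* were *Cul7* (r = 0.97), *Cbx6* (0.97) and *Dmpk* (0.95). Those most like *Tbx20* were *Aen* (0.97), *Tgfb2* (0.96) and *Wasf3* (0.96), those most like *Hand2* were *Grb14* (0.95), *Armcx2* (0.94) and *Fmr1* (0.94), and those most like *Gata6* were *Plekha7* (0.96), *Cadm4* (0.93) and *Smim1* (0.93). *Srf* was most like *Polr1a* (0.94), *Ebf3* (0.89) and *Ide* (0.89), and *Tbx5* most like *Nr4a2* (0.93), *Nphp4* (0.93) and *Armh4* (0.90). *Mef2c* was most like *Eif4ebp2* (0.91), *Arhgef2* (0.87) and *Abca9* (0.85), *Tbx2* most like *Zfp423* (0.88), *Tmc6* (0.87) and *Fbxw8* (0.85), *Mef2a* most like *Ccdc166* (0.82), *Elf2* (0.79) and *Pura* (0.79), and *Nkx2-5* most like *Gnl2* (0.84), *Aars2* (0.80) and *Msi1* (0.79). For each factor these are the 3 highest of 12721 values of r over 16 libraries, picked for their height and not tested. *Nkx2-5* had at most 16 counts in a library.

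Of 33 other cardiac transcription factors and cofactors, 29 had enough counts to be tested, and none was called in any comparison. In Swhtr null treated against untreated slices 8 were higher with an unadjusted p under 0.05 and 2 were lower (median of the 29, 0.12), beside 16.5% of all genes at that p in either direction. The GATA cofactor *Zfpm2* came closest, with 22.3, 20.2, 17.8 and 18.3 CPM in Swhtr null treated, against 13.98, 14.7, 14.6 and 13.8 CPM in Swhtr null untreated slices (0.46, SE 0.12, adjusted p = 0.053). Its groups did not overlap, as in 7.32% of all genes tested. The orphan receptor *Nr2f2* had a log2 fold change of 0.43 (SE 0.13, adjusted p = 0.11), and the class IIa histone deacetylase *Hdac5*, a repressor of MEF2, one of -0.26 (SE 0.08, adjusted p = 0.087).

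Of 26 genes known to be bound by these factors in cardiomyocytes, 11 were under 1 CPM on average, whereas others were abundant. In Swhtr null slices 23 of 26 were higher after treatment (median 1.83), beside 51.6% of all genes, and none was called. In WT slices it was 22 of 26 (median 0.83), beside 51.9% of all genes, and none was called. This list shares genes with the cardiomyocyte markers, among them *Myh6*, *Myl2*, *Myl3* and *Ryr2*, so its counts are not separate from those of the markers. *Atp2a2*, the calcium pump of the sarcoplasmic reticulum, had 334, 342, 320 and 318 CPM in Swhtr null treated, against 292, 306, 253 and 263 CPM in Swhtr null untreated slices (0.24, SE 0.06, adjusted p = 0.0495). These groups did not overlap, as in 7.32% of all genes tested, and the change was below the fold threshold. On adjusted p alone 2.18% of all genes passed (edgeR). In each of these libraries *Atp2a2* lay above the sum of all 14 cardiomyocyte markers (at most 109 CPM). Which cells gave its reads was not tested. *Myh6*, the α-myosin heavy chain, had 0.778, 21.0, 13.0 and 0.716 CPM in Swhtr null treated, against 0.141, 0.113, 0.0998 and 0.0513 CPM in Swhtr null untreated slices (6.38, SE 1.55, adjusted p = 0.056). Its 2 high libraries, numbered 2 and 3, were also those with the highest cardiomyocyte sums (109 and 82.8 CPM).

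Targets of SRF were split by cofactor. Of the 18 genes used with MRTF or myocardin, 16 were higher in treated Swhtr null slices (median 0.23) and 7 in treated WT slices (median -0.01), none called. The difference of the responses was above 0 for 16 of the 18 (median 0.31), and none was called. *Vcl* had the smallest p there (edgeR adjusted p = 0.71). *Fhl1*, a muscle LIM protein, averaged 98.2 ± 25.2 CPM in Swhtr null treated and 62.6 ± 9.56 CPM in Swhtr null untreated slices (SD, n = 4 each; 0.65, SE 0.19, adjusted p = 0.11). Of the 9 genes used with ternary complex factors, among them *Srf* itself, 7 were higher in each genotype (median 0.33 in Swhtr null and 0.37 in WT slices). *Fosb*, an immediate early gene, rose in Swhtr null slices, with 6.73, 6.06, 5.23 and 4.81 CPM in Swhtr null treated against 2.45, 3.04, 1.40 and 1.23 CPM in Swhtr null untreated slices (1.49, SE 0.33, adjusted p = 0.025). It was the single gene called in this list. In WT slices *Fosb* had 10.8, 5.53, 9.85 and 3.33 CPM in treated, against 2.10, 1.68, 2.01 and 2.46 CPM in untreated slices (1.84, SE 0.33, adjusted p = 0.20), also without overlap. Groups of libraries did not overlap in 3.67% of all genes in that comparison, in 4.06% between genotypes in treated slices and in 2.86% in untreated slices, and none of the 10 factors was among them.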

How the data were processed

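RNA was sequenced from heart slices of 4 mice per genotype, from 2 litters. Which library came from which mouse is not stated, and p-values measure the spread between libraries. Reads (paired, 150 bp) were mapped by the authors to mm10 with STAR and counted over Ensembl genes with GenomicAlignments, and the deposited values are raw counts. Library kits differ between the sources, with Ribo-Minus and ScriptSeq in the methods and TruSeq mRNA in the labels. Symbols, positions and exonic lengths were taken from GENCODE M21.

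A total of 10 counts was required, which left 24971 genes. After TMM scaling, a model of 4 group means was fitted in edgeR 4.0.16 (R 4.3.3, robust quasi-likelihood test, 12 residual degrees of freedom), since the count test fits raw counts. SE and intervals are from this fit. Pairs of libraries differed by more than sampling noise (lowest chi-square per degree of freedom 5.39). Alternatives were DESeq2 1.42.0, limma 3.58.1 with quality weights, other scaling and filters, the libraries compared only, no fold threshold, a replicate block and each library left out. Leaving out both Swhtr null libraries numbered 2, and the relations to marker lists other than that of cardiomyocytes, were added after the data were seen. For the block, deviations from the group means were correlated between treated and untreated libraries of the same number. They gave r = 0.15, 0.58, 0.25 and 0.39 in Swhtr null and -0.08, -0.05, 0.16 and 0.32 in WT slices. Swhtr null treated library 3 was closer to untreated library 4 (r = 0.34). WT treated libraries 1 and 2 were closer to untreated libraries 2 (r = 0.38) and 1 (r = 0.20). The block results thus rest on a pairing by number that was not established in either genotype.

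The named genes are the 10 factors, the 3 genes most like each by Pearson correlation of log2 CPM (prior count 2), the called genes or those of smallest p in each list, and the markers. *Nppa*, *Nppb*, *Myl7* and *Hand2os1* were chosen after their values were seen. The 10 factors and the lists were chosen with earlier results of these data known. The test was run on simulated data first.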

Additional observations from a re-analysis of the deposited data

Results flagged for a closer look

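In 6 of 40 groups (10 genes in 4 groups of 4 libraries) the highest library stood far from the other 3, by Dixon's criterion for the gap over the range of 4 samples. Chance flags about 1 in 20 groups of normally distributed values, a rate that need not hold at the low counts of *Tbx5* and *Nkx2-5*. For *Tbx5* these were Swhtr null treated library 2 (5.19 CPM), Swhtr null untreated library 2 (2.81 CPM) and WT untreated library 2 (0.735 CPM). *Gata6* (25.4 CPM) and *Hand2* (10.7 CPM) stood out in Swhtr null untreated library 2, and *Nkx2-5* (0.337 CPM, from 8 counts) in WT treated library 4. WT treated library 4 also had the highest cardiomyocyte marker sum of the WT libraries (59.2 CPM).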

How the results depend on the processing

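No factor was called in treated against untreated Swhtr null slices by the edgeR fit, and 1 was called with DESeq2, with limma, with edgeR's filter by expression, with the replicate block and without both Swhtr null libraries numbered 2; each time it was *Tbx20*. With no fold threshold 1 was called, *Srf*. With single libraries left out the count was 0 to 1. In the other comparisons and in the interaction 0 factors were called under every alternative, the replicate block included, and 0 relations to the cardiomyocyte level passed. Of the single log2 fold changes under the alternatives, 54 changed sign while uncalled, mostly of *Nkx2-5* and *Tbx5*, and 10 became called. Over all genes 155 were called in treated against untreated Swhtr null slices, against 464 with DESeq2, 616 with the replicate block, 423 without both Swhtr null libraries numbered 2 and 6 with the libraries compared only, and 22 to 575 with 1 library left out (without Swhtr null untreated library 4 and library 2); the cause was not tested. In treated against untreated WT slices 0 genes were called, against 9 with DESeq2, 3 with limma and 19 with the block. The interaction had 0, against 52 with the block. Between genotypes the counts were 23 in treated slices, against 39 with DESeq2, and 25 in untreated slices, against 38 with the block. At the counts of *Nkx2-5* and *Tbx5* the depth limits any statement.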
